A study of Mus musculus with 23 samples.

Results

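The nuclear genes of oxidative phosphorylation were followed across macrophages and tumour-cell lines of 3 mouse head and neck tumour models. Colonies cultured from sorted macrophages were included for the HPV-negative MEER and SCCVII models. Members were the protein-coding genes whose symbol begins with Ndufa, Ndufb, Ndufc, Ndufs, Ndufv, Uqcr, Cox4, Cox5, Cox6, Cox7, Cox8 or Atp5, together with Sdha, Sdhb, Sdhc, Sdhd and Cyc1, with the Ndufaf assembly factors left out. This gave 86 of the 36793 genes in the tables: 36 of complex I, 4 of complex II, 9 of complex III, 20 of complex IV, 16 of complex V, and Atp5s, a factor coupled to the ATP synthase that is not a structural subunit. The subunits encoded by mitochondrial DNA were not analysed here.

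Mitochondria make most cellular ATP by passing electrons from NADH (complex I) and succinate (complex II) through complex III and cytochrome c to oxygen at complex IV. The protons pumped on the way drive ATP synthase, complex V. Most subunits come from nuclear genes on many chromosomes and must be made in proportion to each other, while some positions, mainly in complex IV, can be filled by alternative subunits that are used in muscle, testis or low oxygen. Macrophages shift between respiration and glycolysis with their activation state, and tumours are often poor in oxygen.

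The 23 libraries formed 8 groups, each of 3 except SCCVII colonies with 2. HPV- MEER and HPV+ MEER, here HPV-negative and HPV-positive MEER, are lines of mouse oropharyngeal epithelial origin grown in C57/Bl6 mice. SCCVII cells, spelled SSCVII in some labels, are an HPV-negative squamous carcinoma line grown in C3H/HeJ mice. From subcutaneous tumours of each model, macrophages were sorted as CD45+CD11b+Gr1-F4/80hi cells, and every macrophage library pooled 3 to 4 mice; the HPV-negative ones are numbered 1, 2 and 4. The 3 lines were sequenced as aliquots of cultured cells, so p-values for them reflect variation among aliquots, part of which may be technical. Colonies of HPV-negative MEER and SCCVII came from sorted macrophages kept for 9 days in a haematopoietic stem cell medium. SCCVII differs from MEER in both tumour and mouse strain, which cannot be told apart. The HPV-negative colony libraries stand in a table of their own, so handling cannot be told apart from that group either. Comparisons within a model share libraries: macrophages enter those with lines, with colonies and with each other.

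Libraries held between 26848759 and 47609481 expected counts, which are estimated read counts per gene. Levels below are CPM, counts relative to the library's total, scaled by TMM, a method that aligns libraries on the bulk of their genes, and they are compared between libraries, not between genes. Where genes are compared with each other, the authors' TPM, which account for transcript length, are used. Summed over 10 macrophage markers, the macrophage libraries reached 16787 to 29400 CPM and the lines 18.7 to 48.7 CPM. The colonies stood apart from each other and from their label: replicate 1 was high in each group (13079 CPM in HPV-negative and 14225 in SCCVII colonies), while the lowest libraries held 65.2 and 1184 CPM. Csf1r, the receptor of the macrophage growth factor, was at 558, 5.21 and 0.664 CPM in the HPV-negative colonies and at 91.0 and 10.1 in the SCCVII colonies, against 2480 to 3555 in all macrophages. Summed fibroblast markers reached 451 to 1390 CPM in HPV-negative and 2799 to 4141 in SCCVII colonies, against 13.4 to 92.2 in all macrophages. The SCCVII line itself held 2717 to 2852 CPM of these fibroblast markers and the HPV-negative line 168 to 254 CPM. The 10 epithelial markers summed to 417 to 573 CPM in HPV-negative and 214 to 267 CPM in SCCVII colonies. In the lines they summed to 380 to 620 CPM (HPV-negative) and 1009 to 1102 CPM (SCCVII). In macrophages of these models they summed to 77.2 to 159 CPM and 106 to 129 CPM. By this sum the HPV-negative colonies lay within the range of their line and above their macrophages. Counts of called genes are therefore given with and without replicate 1 of the HPV-negative colonies. Leaving out an SCCVII colony library leaves 1 in that group, so only effect sizes are given for such fits. In bulk RNA, fewer cells of a type and less RNA per cell cannot be told apart.

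Nearly all members were expressed in every sample. Of the 86, 72 had at least 10 CPM in every library and 51 had at least 1000 counts in every library. Cox7b2, Cox8b and Cox8c had under 10 counts in every library. Over the 76 members above 1 CPM in every group, the highest group mean was a median of 2.25-fold above the lowest. In 28 members this range was under 2-fold. In 5 it was at least 4-fold: Cox6c (5.62-fold), Ndufa4 (5.08), Atp5s (4.84), Ndufv3 (4.38) and Atp5g1 (4.02).

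The summed level of the 86 genes ranged from 6405 ± 466 CPM (SD, n = 3) in HPV-negative colonies to 9534 ± 233 (SD, n = 2) in SCCVII colonies. Macrophages were at 9142 ± 559 in HPV-negative, 8661 ± 173 in HPV-positive and 8438 ± 469 in SCCVII tumours (SD, n = 3 each). The lines were at 9133 ± 819, 7293 ± 375 and 8103 ± 203 in the same order. The 3 HPV-negative colony libraries, at 5997 to 6914 CPM, were below every library of HPV-negative macrophages and lines. This order holds on the TMM scale: by library size only HPV-positive macrophages (6983 CPM) were below HPV-negative colonies (7360.1 CPM), and by the authors' TPM both HPV-positive (14899) and SCCVII macrophages (16993) were below them (17492). Atp5a1 and Atp5b, the alpha and beta subunits of the ATP synthase head, made up a large part of the line totals. Without these 2 genes the sums were 7356 ± 455 CPM in macrophages and 6375 ± 537 in the line of HPV-negative MEER, 6957 ± 105 and 5365 ± 303 in HPV-positive MEER, and 6620 ± 386 and 6295 ± 191 in SCCVII (SD, n = 3 each).

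**Figure D1:**
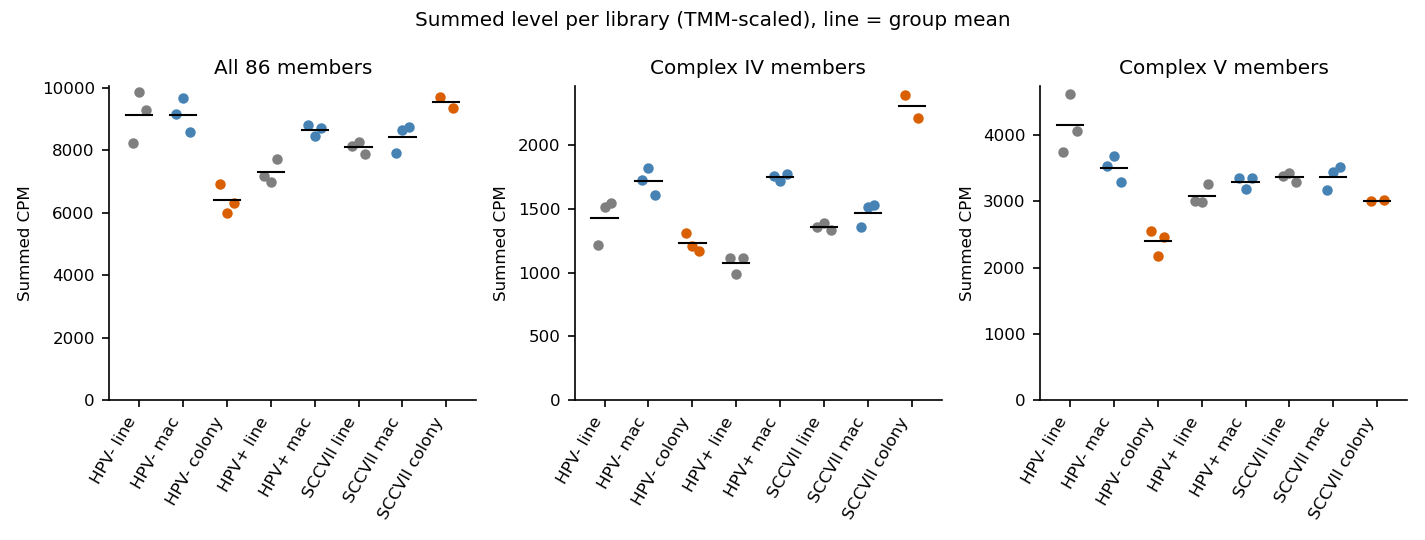
Summed TMM-scaled CPM per library (y axis) in each of the 8 groups (x axis), for all 86 members, for complex IV and for complex V; dots are libraries, bars are group means. On this scale HPV-negative colonies are the lowest group for all members (5997 to 6914 CPM), and SCCVII colonies are the highest for complex IV (2211 to 2391 CPM).

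Some members share their sequence with processed pseudogenes, which limits what a count under their name means. Of the 86 members, 28 had at least 1 annotated copy, and in 8 the copies or an overlapping gene took over 10% of the joint counts. Most reads were listed under a copy for Atp5l (99.4%, Gm10221), Atp5g2 (97.7%, mostly Gm10175), Cox7c (90.9%, Gm12338) and Ndufb4 (82.1%, Ndufb4c). The coding sequences of these 4 genes have 0 differences from their copy, so reads within them cannot be placed. The sequence shared by Cox7c, a small membrane subunit of complex IV, and Gm12338 (GRCm38 chr11:75599763-75599954, minus strand) is shown first because all its 189 bases are common to both loci. Ndufa12 and Cox7a2l are shown because single bases separate them from copies whose share of the reads differed between SCCVII and MEER samples. Capitals mark the bases that differ, and each pair covers the same stretch of 100 coding bases.
Cox7c and Gm12338: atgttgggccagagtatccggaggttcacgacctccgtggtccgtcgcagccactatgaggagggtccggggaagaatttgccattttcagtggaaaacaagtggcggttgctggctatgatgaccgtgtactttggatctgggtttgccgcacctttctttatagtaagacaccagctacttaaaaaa
Ndufa12: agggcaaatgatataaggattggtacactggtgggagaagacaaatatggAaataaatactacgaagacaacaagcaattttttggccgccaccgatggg
Gm15920: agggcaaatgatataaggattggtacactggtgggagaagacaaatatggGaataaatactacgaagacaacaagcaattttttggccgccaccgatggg
Cox7a2l: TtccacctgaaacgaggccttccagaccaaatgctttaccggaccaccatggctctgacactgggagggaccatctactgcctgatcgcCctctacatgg
Gm6969: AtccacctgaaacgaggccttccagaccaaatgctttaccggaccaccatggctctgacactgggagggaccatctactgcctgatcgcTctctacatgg

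Ndufa12, an accessory subunit of complex I, and Gm15920 (GRCm38 chr5:130188395-130188796, plus strand) differ by A147G and T426C over the 399 aligned coding bases. Cox7a2l, which takes part in joining complexes III and IV, and Gm6969 (chr12:24638669-24639010, minus strand) differ by T214A and C303T and by 1 gap. Positions count from the first coding base, with the gene's base first. In MEER samples Gm15920 took 0.31% to 3.35% of the joint counts with Ndufa12, and in SCCVII samples 47.9% to 55.6%, in macrophages, line and colonies alike. Gm6969 took 0.08% to 1.18% and 16.5% to 18.4% of the joint counts with Cox7a2l. The 2 sets of libraries did not overlap at either locus. Counted alone, Ndufa12 was lower in SCCVII than in HPV-negative macrophages by edgeR's quasi-likelihood test (log2 change -1.16, adjusted p = 1.73e-05). With Gm15920 added it did not pass (-0.16, adjusted p = 0.0699), and between lines the change went from -0.93 to 0.02. For Cox7a2l the change between these macrophages went from -0.56 to -0.28 (adjusted p = 0.00316). The cause of the split was not tested.

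**Figure D2:**
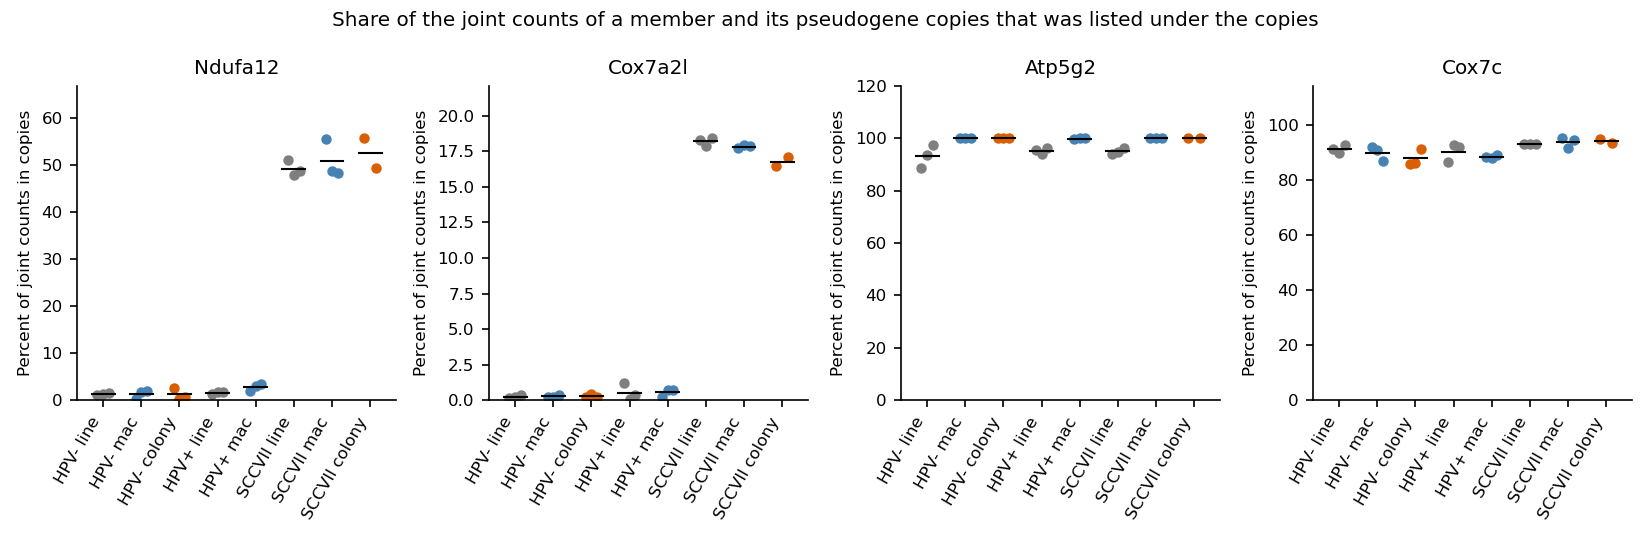
Percent of the joint counts of a gene and its copies that was listed under the copies (y axis), per library in each group (x axis), for Ndufa12, Cox7a2l, Atp5g2 and Cox7c, each on its own scale; dots are libraries, bars are group means. For Ndufa12 the SCCVII libraries (47.9% to 55.6%) stand apart from all MEER libraries (at most 3.35%), while Atp5g2 and Cox7c are mostly listed under copies everywhere.

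Macrophages were first compared with the line of their own tumour. In all 3 models more members were higher in macrophages than lower, on the TMM scale. In HPV-negative MEER, 51 of 83 tested members were higher and 10 lower (adjusted p under 0.05, Benjamini-Hochberg), where 76.1% of all 15835 genes were called, 38.7% higher and 37.4% lower. In HPV-positive MEER, 59 were higher and 12 lower, against 39.6% and 39.1% of all genes (78.8% called). In SCCVII, 49 were higher and 16 lower, against 37.4% and 35.5% (73.0% called). The median log2 change of the members was 0.42, 0.54 and 0.36, beside 0.01, 0.00 and 0.00 over all genes.

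This excess depends on how the libraries are scaled. Scaled by library size only, the splits were 32 higher and 20 lower, 23 and 35, and 28 and 22, with members' medians of 0.09, -0.11 and 0.11, while the median of all genes moved to -0.30, -0.65 and -0.19. Summed over members, the authors' TPM were lower in macrophages than in lines, at 18639 ± 412 against 20942 ± 1065 in HPV-negative MEER and 14899 ± 182 against 18649 ± 994 in HPV-positive MEER (SD, n = 3 each), and at 16993 against 18416 in SCCVII. The measured excess is thus relative to the other genes of the same library. Among protein-coding genes in HPV-negative MEER, transcripts under 800 bases had a median change of 0.16 and longer ones -0.05; members had 0.51 and 0.23. The part of transcript length in the result was not tested.

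Complex II, the succinate dehydrogenase, gave no lower member in any model on the TMM scale. In HPV-positive MEER its 4 genes held 0.0481% to 0.0498% of all counts in macrophages and 0.0514% to 0.0570% in the line, and their summed TPM was 599.9 against 721, lower in macrophages on both measures. Sdhb, its iron-sulfur subunit (GRCm38 chr4:140961203-140979193), was at 142, 142 and 132 CPM in HPV-negative macrophages and at 63.9, 60.7 and 63.1 CPM in the line. The ranges were far apart, and the log2 change was 1.27 ± 0.07 (SE, adjusted p = 6.27e-11). It was 0.72 ± 0.07 in HPV-positive MEER (114, 103 and 109 against 77.0, 75.8 and 69.6 CPM) and 1.04 ± 0.07 in SCCVII (141, 152 and 154 against 79.5, 81.4 and 77.8 CPM). With library size only, the HPV-positive change was 0.06 and did not pass. Sdha, the flavoprotein that oxidises succinate, changed by 0.25, 0.25 and 0.56 in the 3 models, all past the threshold. The membrane anchors Sdhc and Sdhd rose in HPV-positive MEER (0.51 and 0.78), and in HPV-negative MEER they were at 0.22 and 0.12 with adjusted p of 0.0632 and 0.317.

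In complex V, Atp5b, the catalytic beta subunit and the member with the highest TPM, stood at 926, 943 and 884 CPM in HPV-negative macrophages and at 1710, 2215 and 1911 in the line (-0.96 ± 0.09, adjusted p = 1.21e-07). In HPV-positive MEER it was at 898, 846 and 918 against 1192, 1210 and 1396 CPM (-0.35 ± 0.09), and in SCCVII at 879, 943 and 973 against 1127, 1155 and 1133 CPM (-0.15 ± 0.09, adjusted p = 0.153). The libraries did not overlap in any of the 3 models. Its partner Atp5a1 was higher in macrophages by 0.22, 0.47 and 0.54 on the TMM scale. Atp5e, the small epsilon subunit of the central stalk, rose most in the MEER models: 115, 131 and 129 CPM against 36.8, 44.4 and 42.0 in HPV-negative MEER (1.73 ± 0.11) and 131, 125 and 123 against 46.9, 38.8 and 36.0 in HPV-positive MEER (1.81 ± 0.11). In SCCVII the change was 0.97 ± 0.11. Atp5k, a membrane subunit that helps synthase dimers form, rose by 0.70, 1.22 and 0.77. Atp5mpl, a small proteolipid bound to the synthase, rose by 1.40 in HPV-negative MEER. The c-ring gene Atp5g2 fell in every model when counted alone, but with its copies it changed by 0.39 ± 0.08, 1.10 ± 0.08 and -0.33 ± 0.08, so the first 2 changes turned direction.

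In complex I, on the TMM scale, 20 of 36 members rose and 4 fell in HPV-negative MEER, 21 and 5 in HPV-positive MEER, and 23 and 7 in SCCVII. The shares of all genes are those given above for each model. By mean summed TPM, complex I was lower in macrophages than in the line each time. The values were 4933 against 5282.5 in HPV-negative MEER, 3932 against 5204 in HPV-positive MEER and 4463.5 against 4809 in SCCVII. Ndufv3, a small subunit of the NADH-binding module, was higher in macrophages of every model (1.04, 2.30 and 1.23), at 99.1, 116 and 97.1 CPM in HPV-positive macrophages and 24.6, 24.1 and 22.7 in their line. Ndufv1, the subunit that binds NADH and flavin, was lower in macrophages of all 3 (-0.52, -0.37 and -0.30), and Ndufs1, the largest subunit, was lower in both MEER models (-0.35 and -0.23) with 0.07 (adjusted p = 0.416) in SCCVII. Ndufb2, an accessory membrane subunit, separated the models: it was at 22.3, 23.4 and 23.6 CPM in SCCVII macrophages and at 7.38, 10.5 and 8.28 in their line (1.54 ± 0.17), with changes of 0.10 and 0.04 (adjusted p = 0.581 and 0.841) in the MEER models. Its change in SCCVII exceeded that in HPV-negative MEER by 1.44 (interaction, adjusted p = 0.000132). Ndufb7, another accessory subunit, rose by 1.08 in SCCVII and by 0.51 and 0.59 in the MEER models.

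In complex III, on the TMM scale, Uqcrc1, a core protein, rose in all models (0.54, 0.47 and 0.92). Uqcrfs1, the Rieske iron-sulfur protein, did so too (0.36, 0.52 and 0.45). By mean summed TPM, complex III was lower in macrophages than in the line of each model. The values were 2250 against 2717 in HPV-negative MEER, 1723 against 2534 in HPV-positive MEER and 2023 against 2441 in SCCVII. Cyc1, cytochrome c1, went the other way in all 3 (-0.26, -0.44 and -0.97), at 90.3, 101 and 101 CPM in SCCVII macrophages and 213, 209 and 208 in the line. Uqcrq, a small subunit near the ubiquinone site, was also lower in all 3 (-0.90, -0.45 and -0.51).

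In complex IV, HPV-positive MEER had the most calls: 15 of 17 tested members were higher and 2 lower, with a median of 1.03, beside 13 and 2 (0.53) in HPV-negative MEER and 9 and 3 (0.28) in SCCVII. The summed level of complex IV there was 1751 ± 28.2 CPM in macrophages and 1074 ± 74.2 in the line (SD, n = 3 each), on the TMM scale. By TPM it was 3991 in macrophages and 4132 in the line. Cox8a, a ubiquitous small subunit, rose by 1.34 and Cox6b1, which lies where complex IV dimerises, by 1.03, while Cox4i1, the usual subunit 4, rose by 0.60 (0.49 and 0.39 in the other models). By the interaction term, the change from line to macrophage differed between HPV-positive and HPV-negative MEER in 25 of 83 members. This was a smaller share than the 41.0% of all genes. Of these, 19 were higher and 6 lower, against 19.4% and 21.6% of all genes. The share of higher members was thus near the background. Complex IV held 7 of the 19. Between SCCVII and HPV-negative MEER, 14 were higher and 21 lower, both near the 19.8% and 23.9% of all genes (43.6% called). With library size only these splits became 9 and 27, and 17 and 13, and with relative log expression scaling the second was 15 and 15.

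**Figure D3:**
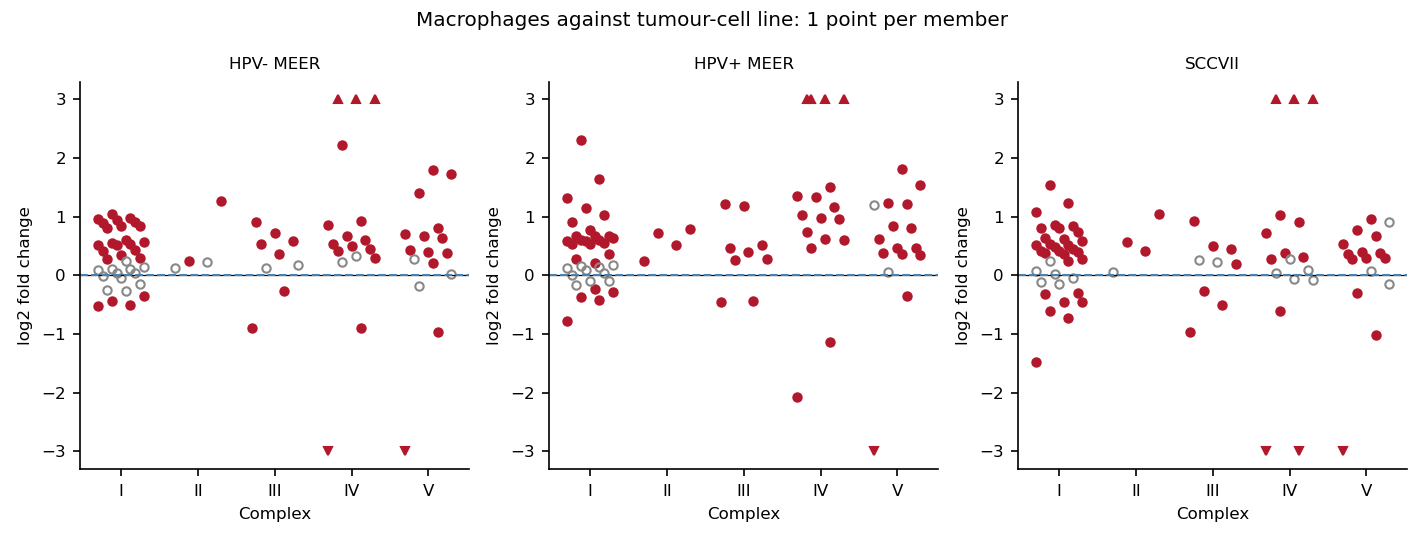
Log2 fold change between macrophages and the tumour-cell line (y axis, 1 point per tested member) by complex (x axis) in the 3 models; filled red points passed an adjusted p of 0.05, open points did not, triangles lie beyond 3 and the dashed line is the median of all genes. Atp5s is not drawn; most filled points lie above the line in each model (51, 59 and 49 members).

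Among the alternative subunits, Cox4i2 was found mainly in macrophages. Cox4i2, the form of subunit 4 known from lung and from cells in low oxygen (GRCm38 chr2:152754173-152765037), stood at 3.92, 5.51 and 3.25 CPM in HPV-negative, 15.3, 18.4 and 13.3 in HPV-positive and 0.753, 0.397 and 0.546 in SCCVII macrophages. The 3 macrophage groups did not overlap. All lines were at or below 0.0357 CPM and all colonies at or below 0.255 CPM, and in the HPV-positive line it had 0 counts in every library, so it was at least 563-fold higher in those macrophages (against 3 counts over the group). By TPM, Cox4i2 made up 3.93% to 5.54% of Cox4i1 and Cox4i2 together in HPV-positive macrophages, 1.02% to 1.5% in HPV-negative and 0.119% to 0.241% in SCCVII macrophages. For Cox4i1 itself the log2 differences of HPV-positive and SCCVII from HPV-negative macrophages were -0.03 ± 0.07 and -0.07 ± 0.07 (adjusted p = 0.755 and 0.454).

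The muscle forms had other patterns. Cox7a1, the heart and muscle form of subunit 7a, was at 1.37 to 3.46 CPM in macrophages and at most 0.321 CPM in lines. Cox6b2, the testis form of subunit 6b, was at 0.981 to 1.52 CPM in macrophages and 0 counts in the HPV-positive and SCCVII lines, which makes it at least 38.6-fold and 42.8-fold higher. Cox6a2, the muscle form of subunit 6a, was higher in lines: 15.7 to 25.3 CPM in the HPV-negative line and 24.2, 24.0 and 20.2 in the SCCVII line, but 1.23, 1.29 and 2.39 in the HPV-positive line and at most 1.47 CPM in any macrophage. Its share of Cox6a1 and Cox6a2 by TPM was 10.3% to 20.6%, 15.4% to 19.8% and 1.08% to 2.19% in these lines. Skeletal muscle markers summed to at most 1.84 CPM in every library.

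**Figure D4:**
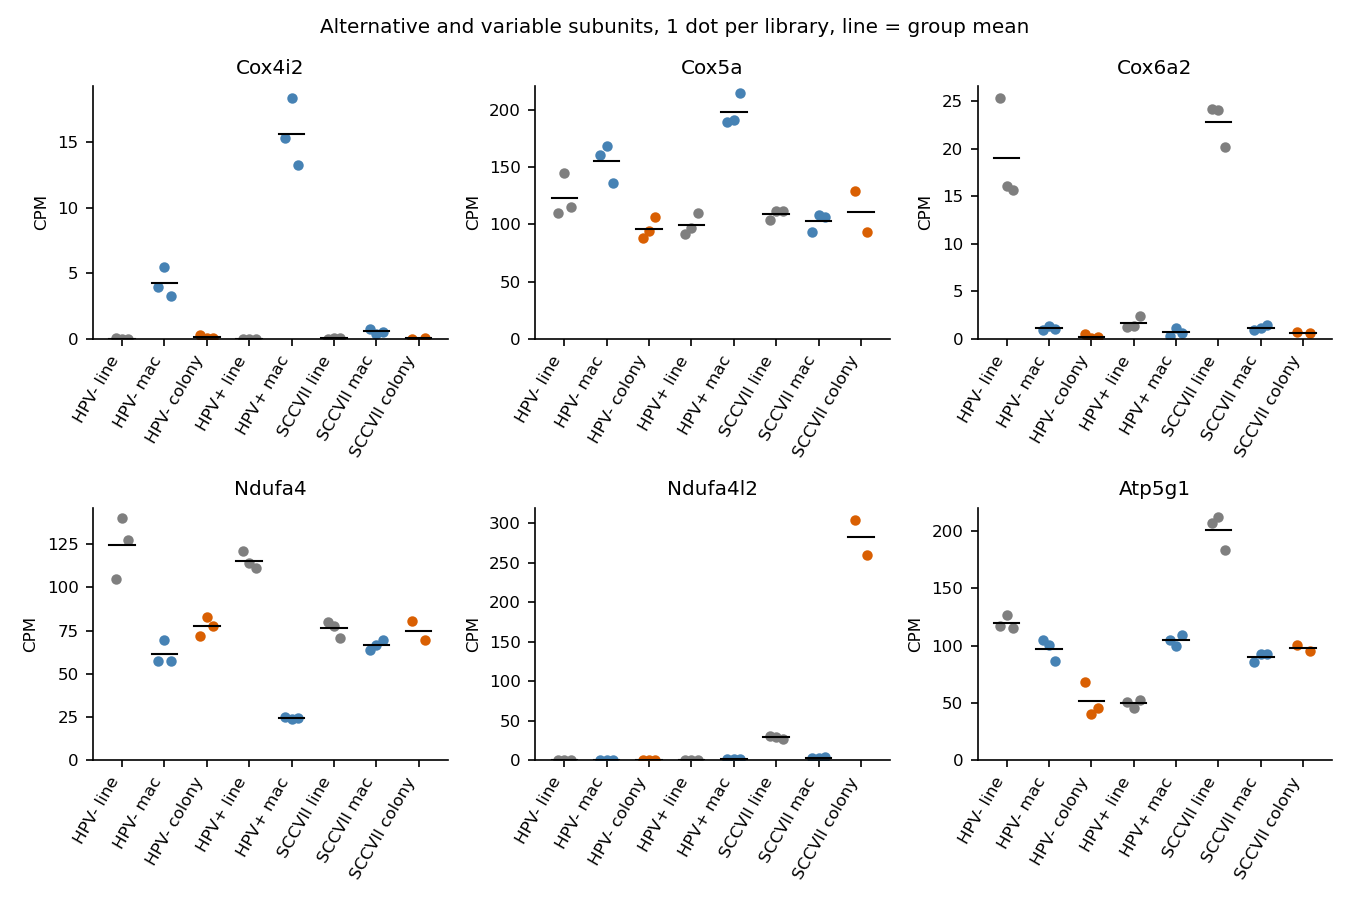
TMM-scaled CPM per library (y axis) of Cox4i2, Cox5a, Cox6a2, Ndufa4, Ndufa4l2 and Atp5g1 in the 8 groups (x axis); dots are libraries, bars are group means. Cox4i2 is highest in HPV-positive macrophages (13.3 to 18.4 CPM), Ndufa4 is lowest there (23.8 to 25.1 CPM), and Ndufa4l2 is highest in SCCVII colonies (259 and 305 CPM).

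HPV-positive and HPV-negative macrophages differed in single members more than in the set as a whole: 5 of 82 tested members were higher and 23 lower, against 22.8% and 25.9% of all 14085 genes (48.7% called), and 28.0% of the members were lower, near the background of 25.9%. Their median was -0.08, beside -0.05 over all genes. With library size only, 2 were higher and 63 lower with a median of -0.33 beside -0.30 over all genes. All 23 libraries in 1 fit called 7 members.

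Ndufa4, first described in complex I and now counted with complex IV (chr6:11900292-11907497), was at 25.1, 23.8 and 24.5 CPM in HPV-positive and 57.3, 69.5 and 57.2 in HPV-negative macrophages. The groups did not overlap, and the log2 change was -1.30 ± 0.08 (SE, adjusted p = 2.66e-06). SCCVII macrophages were at 64.0, 66.7 and 69.6 CPM and differed from the HPV-positive ones by 1.41 ± 0.08. In the lines it was at 121, 114 and 111 CPM in HPV-positive and 105, 140 and 127 in HPV-negative MEER, with overlap (-0.11 ± 0.11, adjusted p = 0.448). Its paralog Ndufa4l2, which is induced by HIF1 and lowers complex I activity, was at 0.968, 1.82 and 1.14 CPM in HPV-positive and 0.680, 0.405 and 0.776 in HPV-negative macrophages (1.09 ± 0.35, adjusted p = 0.0278).

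Cox4i2 rose by 1.91 ± 0.24 in HPV-positive against HPV-negative macrophages (adjusted p = 0.000176). Cox5a, the subunit that binds thyroid hormone, rose by 0.38 ± 0.09, at 190, 191 and 215 against 160, 169 and 136 CPM, without overlap, but with library size only it did not pass (0.13, adjusted p = 0.159), nor did it with all 23 libraries in 1 fit (0.36, adjusted p = 0.0695). Ndufv3 (0.61 ± 0.08) and Cox8a (0.33 ± 0.10) rose as well. In complex I, 12 of 36 fell and 1 rose, among them Ndufb2 (-0.49 ± 0.07) and Ndufab1, the mitochondrial acyl carrier protein (-0.45 ± 0.07). In complex II 3 of 4 fell, Sdhb and Sdhc by 0.32 each and Sdha by 0.21 on the log2 scale. Without HPV-positive macrophage replicate 2 or 3, 17 or 16 members passed in place of 28.

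Other cell types' markers moved with this contrast. Epithelial markers summed to 436 to 563 CPM in HPV-positive, 77.2 to 159 in HPV-negative and 106 to 129 in SCCVII macrophages. Summed dendritic cell markers were 60.9 to 195, 10.3 to 15.8 and 5.12 to 8.73 CPM, and eosinophil markers 46.9 to 67.0, 3.64 to 5.36 and 1.13 to 1.43 CPM. Of the 10 epithelial markers 6 exceeded 1 CPM in every HPV-positive macrophage library, and Krt17 and Trp63 were at 0. Natural killer cell markers summed to 61.7 to 113 CPM in HPV-positive, 17.1 to 33.8 in HPV-negative and 5.49 to 8.84 in SCCVII macrophages. This sum is not particular to such cells here, as the cultured HPV-positive line reached 38.1 to 63.4 CPM. Only 1 of the 5 genes exceeded 1 CPM in every library of that line. The HPV-negative line was at 2.86 to 3.94 CPM. Levels of Cox4i2 and Ndufa4 in the HPV-positive line are given above. The part of any of these cells in the differences was not tested.

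Against HPV-negative macrophages, SCCVII macrophages had 2 of 82 members higher and 31 lower, where 18.7% and 20.5% of all genes were higher and lower (39.2% called), with a median of -0.16 beside -0.02. Complex IV accounted for 9 of the 31. Ndufa3, an accessory subunit of complex I, was at 27.9, 26.6 and 30.1 against 44.8, 52.0 and 43.3 CPM (-0.75 ± 0.09), and Cox5a at 93.5, 108 and 107 against 160, 169 and 136 CPM (-0.61 ± 0.09), both without overlap. Cox4i2 was lower by 2.91 ± 0.28 on the log2 scale. Of the 2 higher members, Ndufs1 changed by 0.14 ± 0.05 and lost its call without any single one of the 6 libraries compared (0.13 to 0.17). Ndufa4l2, the other, was at 3.22, 2.74 and 3.86 CPM (2.37 ± 0.35). Cox7c also fell, with most of its reads listed under a copy. T cell markers summed to 7.44 to 20.2 CPM in SCCVII and 45.8 to 76.2 in HPV-negative macrophages, and natural killer cell markers to 5.49 to 8.84 and 17.1 to 33.8 CPM; their part was not tested. Without SCCVII macrophage replicate 1, 17 members passed in place of 33, and all 23 libraries in 1 fit called 9. Against HPV-positive macrophages 10 were higher and 24 lower, against 32.2% and 30.9% of all genes (63.2% called). That split depended on scaling and became 45 and 9 with library size only.

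Between the lines, HPV-positive MEER had 4 members higher and 28 lower of 80 tested than HPV-negative MEER, against 23.2% and 23.9% of all 14396 genes (47.0% called), with a median of -0.21 beside -0.01. No member of complex III or IV was higher. Cox6a2 fell by 3.54 ± 0.29 on the log2 scale. Atp5g1, one of 3 genes for the c-ring subunit through which protons pass, was at 51.0, 45.8 and 52.9 against 117, 127 and 115 CPM (-1.27 ± 0.10, adjusted p = 4.62e-06), and the c-ring gene Atp5g2 counted with its copies fell by 0.75 on the log2 scale. The groups were well separated. Atp5g1 has copies that hold 15.7% of the joint counts; with them its change was -1.23. Cox7a2l fell by 1.02 and Atp5b by 0.63 on the log2 scale. Atp5s (0.74), Ndufs3, a core subunit of the peripheral arm (0.39), and Atp5j, a subunit of the synthase stalk (0.28), rose. Ndufs3 lost its call without HPV-negative replicate 1 or 2 or HPV-positive replicate 2 or 3 (0.28 to 0.40), and Atp5j without replicate 1 of either line (0.26 and 0.20). Without replicate 2 of either line, 20 members passed in place of 32.

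The SCCVII line had 11 members higher and 28 lower than the HPV-negative line, against 27.2% and 31.6% of all genes (58.8% called), and 24 higher and 19 lower than the HPV-positive line, against 30.0% and 34.1% (64.0% called). Against HPV-negative MEER, Ndufb9, an accessory subunit of complex I, was at 201, 205 and 184 against 91.2, 115 and 104 CPM (0.83 ± 0.11). Cox6c, a small subunit of complex IV, was at 167, 173 and 153 against 82.1, 98.1 and 79.3 CPM (0.83 ± 0.11), and against 52.8, 48.1 and 56.9 in the HPV-positive line (1.56 ± 0.11). Atp5g1 stood at 207, 212 and 183 CPM, above both other lines (0.65 ± 0.09 and 1.92 ± 0.10). Ndufa4l2 was at 31.2, 28.9 and 26.8 CPM, against at most 0.27 CPM in both MEER lines, and made up 14.9% to 15.5% of Ndufa4 and Ndufa4l2 by TPM. Cox8a was lower (-1.10 ± 0.23), at 69.4, 79.4 and 95.2 against 111, 171 and 208 CPM, as was Ndufb2 (-1.61 ± 0.21). None of these groups overlapped.

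Most called members were lower in HPV-negative colonies than in macrophages of that tumour, and most were higher in SCCVII colonies than in theirs. In HPV-negative MEER, 3 of 82 members were higher in colonies and 58 lower, against 34.0% and 28.7% of all 16238 genes (62.7% called), with a median of -0.61 beside 0.02. All complexes took part: 22 of 36 members of complex I, 4 of 4 of complex II, 7 of 9 of complex III, 12 of 17 of complex IV and 13 of 15 of complex V were lower. Without colony replicate 1, the one with many macrophage transcripts, 7 were higher and 62 lower, with a median of -0.63. With library size only the split was 7 and 38, with a median of -0.31 beside 0.31 over all genes. Protein-coding transcripts under 800 bases had a median of -0.18 and longer ones 0.08, and members -0.62 and -0.54; the part of length was not tested.

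Cox5b, the zinc-binding subunit of complex IV, was at 56.8, 50.9 and 47.7 CPM in HPV-negative colonies and 125, 129 and 113 in macrophages (-1.25 ± 0.14, adjusted p = 0.000177). Ndufc2, a membrane-arm subunit of complex I, was at 35.5, 24.0 and 24.9 against 70.9, 76.1 and 59.0 CPM (-1.29 ± 0.19), and Atp5e at 67.6, 52.0 and 40.8 against 115, 131 and 129 CPM (-1.23 ± 0.21). Sdhb was at 89.2, 56.8 and 58.2 against 142, 142 and 132 CPM (-1.03 ± 0.20). In each of these 4 genes every colony library was below every macrophage library, and replicate 1 was the colony library nearest the macrophages. Cox4i1 was at 241, 157 and 131 against 317, 335 and 292 CPM (-0.83 ± 0.23) and lost its call without colony replicate 2 (-0.68, adjusted p = 0.0575). Atp5o, the subunit that confers oligomycin sensitivity, fell by 1.35 ± 0.26 on the log2 scale; it overlaps Donson, so its reads are uncertain. The 3 higher members were Atp5s (1.17 ± 0.23), Ndufa12 (0.43) and Ndufa4 (0.32). Ndufa4 lost its call without macrophage replicate 1 (0.27, adjusted p = 0.111) or 4 (0.33, adjusted p = 0.054), and Ndufa12 without any single library but colony replicate 1 (0.42 to 0.47).

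In SCCVII, 31 of 82 members were higher in colonies than in macrophages and 7 lower, against 29.7% and 22.3% of all genes (51.9% called), with a median of 0.24 beside 0.07. Complex I held 17 of the 31. With the replicate number as a block, 19 were higher and 2 lower. Leaving out either colony library leaves 1 in the group, so no counts are given for such fits. Ndufa4l2 (chr10:127514967-127517154) was at 305 and 259 CPM in the colonies and 3.22, 2.74 and 3.86 in macrophages (6.42 ± 0.52, adjusted p = 2.4e-05), and made up 63.8% to 64.1% of Ndufa4 and Ndufa4l2 by TPM. Ndufb9 was at 213 and 201 against 60.5, 64.8 and 67.3 CPM (1.69 ± 0.11), and Cox6c at 287 and 304 against 92.8, 95.9 and 106 CPM (1.58 ± 0.12). The SCCVII line, in the same order, had 31.2, 28.9 and 26.8, 201, 205 and 184, and 167, 173 and 153 CPM, each above the SCCVII macrophages, and these were the 3 largest rises of that line over the HPV-negative line. Among the 7 lower members, Ndufs8, an iron-sulfur subunit of complex I, was at 29.9 and 36.9 against 64.6, 70.5 and 71.9 CPM (-1.05 ± 0.22). It was also lower in HPV-negative colonies (-1.22), as was Sdhb. Sdhb (-0.59) lost its call without any single macrophage library, and was at -0.65 to -0.53 when any 1 of the 5 libraries was left out. Ndufb2 (-0.68) was at -0.36 without colony replicate 2, and lost its call without macrophage replicate 2 or 3 (adjusted p = 0.0599 and 0.0605).

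Set against each other, SCCVII colonies had 49 members higher and 2 lower than HPV-negative colonies, against 20.5% and 19.9% of all genes (40.4% called), with a median of 0.67 beside -0.02. Without HPV-negative colony replicate 1 the split was 56 and 5, with library size only 39 and 6, and with only these 2 groups in the fit 26 and 0. Ndufs5, an accessory subunit of complex I, was at 65.6 and 79.9 against 30.9, 24.3 and 24.2 CPM (1.46 ± 0.17). Cox6c was at 287 and 304 against 96.3, 100.1 and 92.1 CPM (1.62 ± 0.12). In both the groups were well apart. Atp5s was lower in SCCVII colonies (-1.14 ± 0.27), at 4.30 and 4.38 against 6.62, 10.4 and 12.1 CPM. Ndufa12, the other lower member (-0.63), was higher with its copy counted (0.42, adjusted p = 0.0286). Transcripts under 800 bases had a median of 0.18 over protein-coding genes and longer ones -0.07, and members 0.78 and 0.49.

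The interaction, added after the data were seen, tests the difference between the tumours in the change from macrophage to colony. That change was higher in SCCVII for 47 of 82 members and lower for 0, against 13.5% and 10.6% of all genes (24.1% called), with a median of 0.85 beside 0.05. At an unadjusted p under 0.05 there were 55 members, and DESeq2 called 52 higher and 1 lower. Without HPV-negative colony replicate 1 the split was 59 and 3, and with the replicate number as a block 16 and 0. Complex IV gave a median of 1.01 and complex V of 1.04. Fibroblast, epithelial and macrophage markers differ between these colonies as given above, and their part in the difference was not tested.

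**Figure D5:**
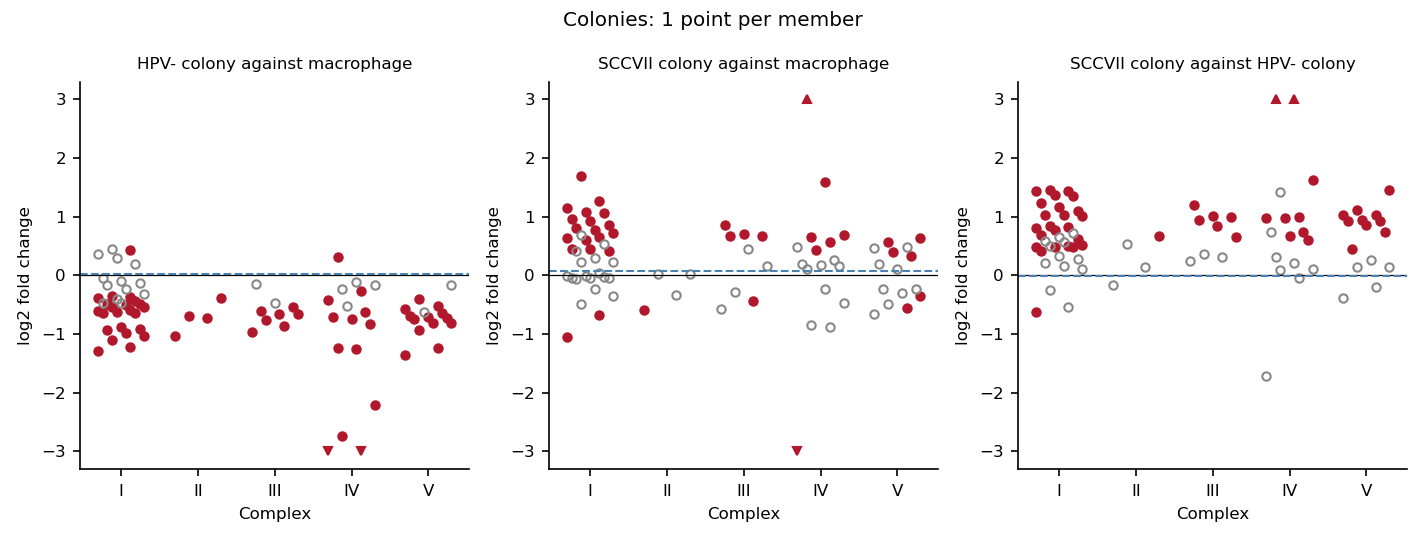
Log2 fold change (y axis, 1 point per tested member) by complex (x axis) for HPV-negative colonies against macrophages, SCCVII colonies against macrophages, and SCCVII against HPV-negative colonies; filled red points passed an adjusted p of 0.05, open points did not, triangles lie beyond 3 and the dashed line is the median of all genes. Atp5s is not drawn. Filled points lie mostly below the line in the first panel (58 members lower) and above it in the others (31 and 49 members higher).

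Other genes of mitochondrial function were read from lists of related pathways. Between HPV-positive and HPV-negative macrophages, 12 of 13 tested regulators linked to the hypoxia-inducible factors were higher and 1 lower, against 22.8% and 25.9% of all genes, with a median of 0.72. Hilpda, a lipid droplet protein induced in low oxygen, was at 333 ± 6.73 against 44.3 ± 4.92 CPM (2.94 ± 0.10) and Egln3, an oxygen-sensing prolyl hydroxylase, at 180 ± 3.02 against 45.2 ± 20.1 CPM (2.01 ± 0.26; SD, n = 3 each for levels). Epas1, which encodes HIF2 alpha, was the 1 lower gene (-1.15). The copper chaperone Cox17, which serves complex IV assembly, rose by 1.00, and 3 of 31 assembly factors of complexes II to V rose while 15 fell. For complex I, 0 of 15 assembly factors rose and 7 fell, led by Ndufaf4 (-0.88). Mitochondrial ribosomal proteins, which translate the mitochondrial subunits, rose in 2 and fell in 35 of 77 (median -0.22), with Mrps28 at -0.83 and Mrpl52 at 0.32. Coq8a, needed for coenzyme Q synthesis, fell by 1.64 on the log2 scale.

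Between macrophages and lines, the same hypoxia-linked list had 10 higher and 2 lower, 12 and 1, and 7 and 2 genes in the 3 models, with medians of 1.33, 2.10 and 0.51. Of all genes, 38.7% were higher and 37.4% lower in HPV-negative MEER, 39.6% and 39.1% in HPV-positive MEER, and 37.4% and 35.5% in SCCVII. Lonp1, a mitochondrial protease, was lower each time (-1.99, -1.90 and -2.79). Regulators of mitochondrial biogenesis gave 3 higher and 10 lower, 2 and 12, and 3 and 7 of 16. In SCCVII the lower share, 43.8%, was near the 35.5% of all genes, while the higher share was below their 37.4%. The helicase of mitochondrial DNA, Twnk, was at 14.2 ± 1.60 against 64.3 ± 5.02 CPM in HPV-negative MEER (-2.06), and the coactivator Ppargc1b at 11.0 ± 1.80 against 1.82 ± 0.07 (2.72). Its relative Ppargc1a was at 0.282 ± 0.378 in those macrophages, 21.1 ± 3.93 in the line and 25.8 ± 11.9 CPM in the colonies (SD, n = 3 each). Line and colonies were both far above the macrophages. Mitochondrial ribosomal proteins gave 30 higher and 27 lower, 26 and 35, and 31 and 27 of 77, near the shares of all genes in HPV-negative MEER and SCCVII. Tricarboxylic acid cycle genes gave 7 higher and 8 lower, 8 and 6, and 6 and 9 of 17.

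In HPV-negative colonies against macrophages, 6 of 77 mitochondrial ribosomal proteins were higher and 43 lower (median -0.46), 7.8% and 55.8%, against 34.0% and 28.7% of all genes. Without colony replicate 1, left out for these lists after the data were seen, the split was 8 and 51. Mrpl23 was at 0.681 ± 0.229 against 25.2 ± 7.90 CPM (SD, n = 3 each). In SCCVII colonies against macrophages, 16 were higher and 7 lower, 20.8% and 9.1%, both below the 29.7% and 22.3% of all genes. Their median was 0.12, and 0.19 without colony replicate 1, which leaves 1 colony library. Between SCCVII and HPV-negative colonies 41 were higher and 6 lower (median 0.57), against 20.5% and 19.9% of all genes. That split was 52 and 9 without HPV-negative replicate 1. Without SCCVII replicate 1 the median was 0.60. The hypoxia-linked list gave 9 higher and 0 lower of 13 in SCCVII colonies against macrophages. Its median was 1.13, and 1.03 without colony replicate 1. Slc2a1, the glucose transporter, was at 822 against 252 CPM there (log2 change 1.70 ± 0.18, and 1.67 without that replicate). In HPV-negative colonies the list gave 2 and 2, and 3 and 3 without replicate 1. Of 15 assembly factors of complex I, 8 rose and 0 fell in SCCVII colonies, with a median of 0.46, and 0.48 without replicate 1.

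Promoters were read for sites of factors known to act on respiratory genes, among them NRF1, whose site is a palindrome. RefSeq entries for GRCm38.p6 matched 69 members, and the window was 250 bases before to 50 after the start, read on both strands. The full 10-letter NRF1 palindrome occurred in 5 of the 69 (7.25%) and in 1.47% of 17492 protein-coding genes. The shorter GCATGCGC, which lies inside that palindrome, occurred in 14.5% and 3.94%, the ETS core CCGGAAG in 23.2% and 13.0%, the YY1 core AAGATGGC in 14.5% and 3.57%, and the estrogen-related receptor letters TCAAGGTCA in 2.90% and 0.377%. That 2.90% is only 2 members, Atp5g3 and Sdhd. ACGTG, the core bound by hypoxia-inducible factors, was about as common in members (26.1%) as in all (23.2%), as was CCAAT (43.5% and 42.3%). The 250 bases before the start are shown for Cox6a1 (chr5:115348959-115349208, minus strand) and Ndufa11 (chr17:56717512-56717761, plus strand), 2 of the 5 genes with the full site, with that site in capitals.
Cox6a1: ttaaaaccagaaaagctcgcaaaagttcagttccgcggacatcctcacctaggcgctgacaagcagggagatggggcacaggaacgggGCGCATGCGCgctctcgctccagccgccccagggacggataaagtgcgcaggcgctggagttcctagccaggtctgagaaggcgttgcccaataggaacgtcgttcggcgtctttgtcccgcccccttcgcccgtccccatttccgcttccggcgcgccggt
Ndufa11: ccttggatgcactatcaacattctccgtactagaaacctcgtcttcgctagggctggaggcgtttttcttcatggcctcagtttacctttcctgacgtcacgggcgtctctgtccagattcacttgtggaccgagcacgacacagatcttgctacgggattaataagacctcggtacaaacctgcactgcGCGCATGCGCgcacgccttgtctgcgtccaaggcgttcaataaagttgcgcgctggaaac

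The site begins 162 bases before the start in Cox6a1 and 60 in Ndufa11. Both genes are expressed in every group, Cox6a1 at 82.9 to 255 CPM and Ndufa11 at 26.4 to 81.9 CPM over the 23 libraries, and both were highest in SCCVII colonies. These matches describe the letters only. No entry was used, among others, for Ndufs1, Sdhc, Cox4i2, Uqcrc2, Cox6a2, Cox4i1, Ndufa4l2, Uqcrq, Cox8c, Atp5mpl, Uqcrb, Cox6c, Ndufb9, Cyc1, Ndufa2 and Atp5a1.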

How the data were processed

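RNA from 23 mouse samples was purified with RNeasy and made into stranded TruSeq mRNA libraries, per the labels' protocols. STAR 2.5.3a, RSEM 1.3.0, FastQC, MultiQC and the builds mm10 and GRCm38 are named in the submitters' processing notes; no source used here gives the annotation release or the strand setting. The deposited tables hold expected counts and TPM per Ensembl gene, per the file headers. GENCODE M21 symbols matched 35243 of 36793 genes (95.8%), and 13.1% of expected counts were not whole and were rounded.

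Members and lists were chosen with earlier results of these data known. edgeR 4.0.16 in R 4.3.3 (quasi-likelihood test, TMM, filterByExpr with a minimum count of 10 and total of 15, prior count 0.125) was fitted to all genes: 9 macrophage, 9 line, 18 macrophage and line, and 11 colony and macrophage libraries. Calls had a Benjamini-Hochberg adjusted p under 0.05, and SE is the log2 change over the root of F. A floor of 3 counts over the group stands for a group at 0, and covers counting error only. Copies were sought with BLAST 2.17.0 (at least 90% identity over 50% of the member's transcript), which gave 33. A wider rule, not planned beforehand, also took pseudogenes matched over 50% of their own transcript, and both rules together gave 51. Gm12338, Ndufb4c and Gm6969 were found only by the wider rule. The copy counts and shares above use both rules. Alternatives were DESeq2 1.42.0, other scalings, no filter, other sample sets, a replicate block, added copies and left-out libraries. Fits of pairs of groups were tested on simulated data with the same variability in all genes. This did not cover the interaction terms or colony libraries that differ as widely as those here.

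Members given in detail were a set of core and alternative subunits, whatever their test, up to 3 called rises and 3 falls per comparison at 5 CPM or more, and up to 2 of each per list; further members were chosen after their values were seen. One member's own values are not reported here.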

Additional observations from a re-analysis of the deposited data

Results flagged for a closer look

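The 14 cases below are the members given in detail for each interaction, up to 3 rises and 3 falls, without Atp5g2. In each, the change within 1 tumour model differed from that in HPV-negative MEER by the interaction term of edgeR's quasi-likelihood test, as log2 differences. More members were called, as given above, and 41.0%, 43.6% and 24.1% of all genes were called in these 3 interactions. From line to macrophage, HPV-positive MEER exceeded HPV-negative MEER by 2.83 for Cox6a2 and 1.41 for Atp5g1, and lay below it for Atp5s (-1.78), Ndufa4 (-1.18) and Ndufab1 (-0.638). For Cox6a2 and Atp5g1 the lines, not the macrophages, hold most of the difference, with Cox6a2 at 1.23 to 2.39 CPM in the HPV-positive and 15.7 to 25.3 CPM in the HPV-negative line. For Ndufa4 it is the macrophages, at 23.8 to 25.1 and 57.2 to 69.5 CPM. From line to macrophage, SCCVII exceeded HPV-negative MEER for Ndufb2 (1.44), Ndufa4 (0.841) and Atp5b (0.81), and lay below it for Ndufa4l2 (-5.23), Cox6c (-1.13) and Ndufb9 (-0.967). From macrophage to colony, SCCVII exceeded HPV-negative MEER for Ndufa4l2 (9.15), Cox6c (1.85) and Ndufa3 (1.75). The Ndufa4l2 values rest on near-zero levels in HPV-negative MEER (at most 0.776 CPM), and so on the prior count. No group had the 4 samples needed to look for a single outlying library.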

How the results depend on the processing

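Of 237 alternative counts of called members, 221 were within 1.5 times the reported one. Scaling by library size only moved the calls to 65 between HPV-positive and HPV-negative macrophages and to 54 between SCCVII and HPV-positive macrophages. Fitting all 23 libraries together gave 7 and 16 calls for these 2, 9 between SCCVII and HPV-negative macrophages, and 18 for the SCCVII interaction of macrophage and line. Fitting only the groups compared gave 18 between HPV-positive and HPV-negative lines and 26 between colonies. Replicate numbers were not taken to pair the samples: same-numbered samples correlated at -0.113 to 0.074 among macrophages and lines, and at -0.127 to 0.345 in the colony comparisons, which share only 2 numbers. A replicate block moved 2 counts by over 1.5 times, to 21 for SCCVII colonies against macrophages and to 16 for the colony interaction. With single libraries left out, calls ranged from 20 to 35 between HPV-positive and HPV-negative lines, 16 to 29 between HPV-positive and HPV-negative macrophages, 17 to 37 between SCCVII and HPV-negative macrophages, and 23 to 32 for SCCVII colonies against macrophages. Summed CPM by library size only were 7360.1 in HPV-negative colonies, 6983 and 7877 in HPV-positive and SCCVII macrophages, 8285 in the HPV-positive line and 9293 in SCCVII colonies; relative log expression gave 9515 in HPV-positive macrophages and 7354 in the SCCVII line. Of 1691 alternative values of 109 single-member results, 1594 kept direction and call, 80 lost and 8 gained the call and 9 reversed. With copies added, Ndufa12 reversed between SCCVII and HPV-negative colonies (0.42) and lines (0.025), and Atp5g2 between macrophages and line of HPV-negative (0.39) and HPV-positive MEER (1.10), since reads under the copies were counted. By library size only, Atp5g1 reversed between HPV-positive and HPV-negative macrophages (-0.12). The cause of the other moves was not tested.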
